A study of Arabidopsis thaliana with 16 samples.

Results

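The clade A protein phosphatases 2C (PP2Cs) of Arabidopsis thaliana are a family of 9 genes, and all 9 were taken by gene identifier from a table of 27655 genes: ABI1 (AT4G26080), ABI2 (AT5G57050), HAB1 (AT1G72770), HAB2 (AT1G17550), HAI1 (AT5G59220), HAI2 (AT1G07430), HAI3 (AT2G29380), PP2CA (AT3G11410) and AHG1 (AT5G51760). Messenger RNA was sequenced from whole germinating seeds of wild-type Col-0 plants, harvested 30 hours after imbibition. At 24 hours the seeds had been moved to diluted Murashige and Skoog liquid medium for 6 hours, with 60 mM glucose, with abscisic acid (ABA, a plant hormone) at 5 µM, or with both. The control group has no added compound in its labels, and no group is labelled as an osmotic control for glucose, so an osmotic effect and a sugar effect cannot be told apart. All groups share the same wild-type genotype, the cold imbibition of 3 days at 4 °C and constant light at 22 °C. Each of the 4 groups has 4 libraries, labelled as biological replicates. Of the 9 genes, 8 were abundant enough to be tested, and HAI1 was removed by the filter on low counts.

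ABA keeps a seed from germinating, and clade A PP2Cs are the brake on its signal. With little ABA, these phosphatases hold the SnRK2 protein kinases inactive. When ABA binds its PYR/PYL receptors, the receptors grip the phosphatases, the kinases are set free, and they phosphorylate bZIP transcription factors such as ABI5. AHG1 and PP2CA (also called AHG3) were found through mutants whose germination is hypersensitive to ABA. ABI1 and ABI2 were found through dominant mutants that no longer respond to it.

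The DNA just before these genes is shown first, because ABA-responsive genes are often bound there by ABI5 and its relatives at the ABA-responsive element. Its core is ACGTG. The 250 bases before the annotated gene start were read from the RefSeq TAIR10.1 genome, in which all 9 members were found by locus tag. The build behind the deposited counts is not given in the sources used here. Printed are the sequences of AHG1, HAI3 and HAI2, which rose most with ABA among the 8 tested members, of PP2CA, which holds the most matches, and of ABI1, which fell. Each runs 5′ to 3′ toward its gene, and capitals mark every match to ACGTG, to the G-box CACGTG, or to the dehydration-responsive core CCGAC on either strand. Adjoining matches run together in capitals.
AHG1 (plus strand, chr5:21026555-21026804): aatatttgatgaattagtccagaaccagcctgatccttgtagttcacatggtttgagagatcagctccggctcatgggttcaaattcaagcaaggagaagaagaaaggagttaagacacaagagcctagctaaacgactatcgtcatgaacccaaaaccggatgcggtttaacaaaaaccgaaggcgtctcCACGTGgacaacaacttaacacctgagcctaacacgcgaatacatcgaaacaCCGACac
PP2CA (minus strand, chr3:3585851-3586100): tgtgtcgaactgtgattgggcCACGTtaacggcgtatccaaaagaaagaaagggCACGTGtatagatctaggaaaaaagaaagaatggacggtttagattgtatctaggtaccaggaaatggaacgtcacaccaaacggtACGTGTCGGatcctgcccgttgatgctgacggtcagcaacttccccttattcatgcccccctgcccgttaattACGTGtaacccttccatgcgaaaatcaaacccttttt
HAI3 (plus strand, chr2:12608425-12608674): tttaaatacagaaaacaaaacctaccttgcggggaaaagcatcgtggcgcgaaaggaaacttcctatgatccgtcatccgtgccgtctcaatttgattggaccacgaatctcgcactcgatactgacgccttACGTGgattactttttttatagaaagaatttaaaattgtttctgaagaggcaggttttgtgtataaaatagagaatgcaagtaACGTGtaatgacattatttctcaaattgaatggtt
HAI2 (minus strand, chr1:2282829-2283078): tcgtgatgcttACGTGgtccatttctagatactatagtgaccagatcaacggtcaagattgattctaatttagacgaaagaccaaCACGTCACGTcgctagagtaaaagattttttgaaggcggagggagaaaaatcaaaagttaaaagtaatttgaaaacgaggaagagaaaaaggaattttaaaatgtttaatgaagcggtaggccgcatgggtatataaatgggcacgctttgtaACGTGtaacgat
ABI1 (minus strand, chr4:13222377-13222626): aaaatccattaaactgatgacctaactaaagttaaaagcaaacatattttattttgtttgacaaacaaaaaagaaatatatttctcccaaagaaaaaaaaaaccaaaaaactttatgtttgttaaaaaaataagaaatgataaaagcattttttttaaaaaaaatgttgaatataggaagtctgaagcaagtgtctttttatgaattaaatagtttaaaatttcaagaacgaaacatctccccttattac

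The ACGTG core was present in 6 of the 9 windows: 5 times before PP2CA, 4 before HAI2, 2 before HAI3, 2 before AHG1, 2 before HAB2 and once before HAB1. A CACGTG holds the core once on each strand, so the pair before AHG1 is a single G-box, and so is 1 pair before PP2CA. No match stood before ABI1, ABI2 or HAI1. Of these, ABI2 was called higher with ABA and ABI1 lower. HAI1, which was not tested, had more counts in every library with ABA than in any without it. Among 27437 windows of protein-coding genes, 22.9% held the core, 6.49% held CACGTG and 12% held CCGAC. Among tested genes with a window, 23.5% held the core, against 33.2% of those called higher with ABA and 56.3% of those called at least 2-fold higher. A match is a description of these letters and shows no binding.

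**Figure D1:**
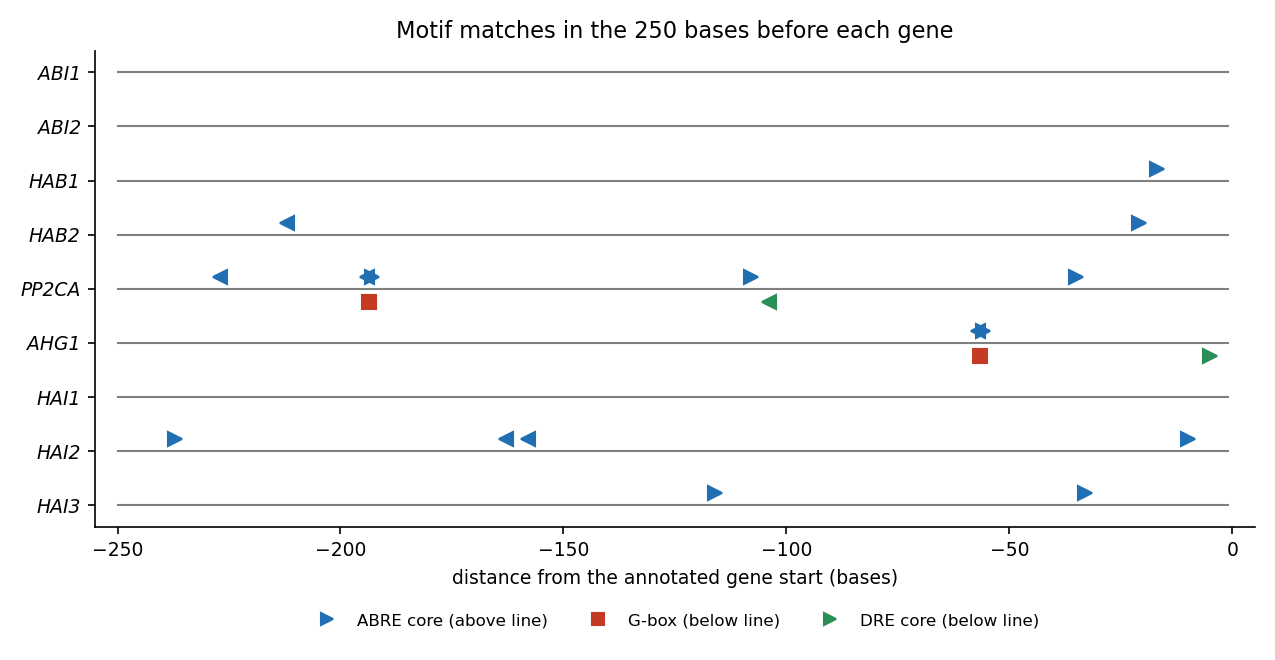
Matches to the ABRE core (above each line), the G-box and the DRE core (below) in the 250 bases before each of the 9 clade A PP2C genes; the x axis is the distance from the annotated gene start in bases, and arrows give the strand. PP2CA carries 5 ABRE cores and HAI2 carries 4, while the lines of ABI1, ABI2 and HAI1 are empty.

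Library totals ran from 9360552 to 17794702 counts, and the 9 genes together held between 2597 and 10765 counts per library. Seed transcripts were abundant, with ICL, the isocitrate lyase of oil breakdown, at 22599 to 25628 CPM (the count scaled to a common library size) and the endosperm expansin EXPA2 at 769 to 994 CPM. The photosynthesis gene LHCB1.1, whose near-identical copies make it uncertain, was at most 0.598 CPM, although RBCS1A was at 1475 to 1847. The 3 seed maturation transcripts on the marker list moved with ABA: the storage protein gene CRA1 ran from 102 to 162 CPM in the 8 libraries without ABA and from 1251 to 1895 in those with it, and CRC and the oleosin gene OLEO1 were likewise higher in every library with ABA. The embryo growth expansin EXPA1 ran from 1809 to 1956 CPM without ABA, from 977 to 1143 with ABA alone and from 1456 to 1554 with both compounds. Between ABA alone and both compounds, CRA1 (1574 to 1895 against 1251 to 1326 CPM) and OLEO1 (309 to 379 against 236 to 268) were also apart. CRC overlapped between these groups (104 to 146 against 96.2 to 117). The part of these differences in the results below was not tested. ABA replicate 3 stood apart from its group. Its mean correlation with the other ABA libraries was 0.9815, against 0.9880 to 0.9897 for those libraries, and it held 653 CPM of the endosperm gene EPR1 against 213 to 218 in them. The other endosperm gene on the marker list, EXPA2, went the other way, at 769 CPM against 814 to 981. Control replicate 1 also stood apart, by less. Its mean correlation with the other control libraries was 0.9882, against 0.9900 to 0.9910 for those libraries, and EPR1 was at 140 CPM against 201 to 250. EXPA2, at 924 CPM, lay within the 840 to 994 of those libraries. For the calls of members below, ABA replicate 3 and control replicate 1 were each left out in turn, and each call that changed is given. In whole seeds, fewer cells of a type and less RNA per cell cannot be told apart. All 9 genes had whole-number counts in every library. The best match of each among transcripts of other genes was taken by identity times aligned length. Of these matches the highest identity was that of ABI2 and ABI1, at 78.431% over 1071 bases. HAB1 and HAB2 had 75.899% over 1585 bases. ABI1 overlaps MEK1, a gene on the opposite strand, by 22 bases.

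Levels of different genes were compared on the deposited value per transcript length, which the files head as TPM. In control seeds PP2CA, at 57.2 ± 1.7 (SD, n = 4 here and throughout), and ABI1, at 56.4 ± 2.0, were the most abundant members, and their libraries overlapped. AHG1 followed at 26.5 ± 5.9 and HAB2 at 20.4 ± 1.3, each apart from its neighbours. HAI3 at 11 ± 2.2, HAB1 at 9.84 ± 1.0 and HAI2 at 7.34 ± 1.2 overlapped one with the next. ABI2 stood at 1.64 ± 0.33, and HAI1 was at most 0.12 in any control library. In ABA seeds the order on this per-length scale was AHG1 (136 ± 8.3), PP2CA (96.4 ± 8.3), HAI3 (69.8 ± 5.3), ABI1 (46.3 ± 2.9), HAI2 (37.5 ± 1.6), HAB2 (26.5 ± 2.1), HAB1 (22 ± 1.2), ABI2 (4.4 ± 0.39) and HAI1 (0.415 ± 0.091), and no neighbours in it overlapped. With ABA plus glucose the order differed only in that ABI1 (45.9 ± 1.4) stood above HAI3 (42.6 ± 4.3), and the libraries of these neighbours overlapped.

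ABA against control asks which phosphatase transcripts changed with the hormone alone. Of the 8 tested members 7 rose and 1, ABI1, fell, in edgeR's quasi-likelihood test at an adjusted p under 0.05. Over all 17083 genes tested, 34.1% were called, 16.1% higher and 18% lower. The ABA and control libraries of all 8 were apart, as they were for 28.8% of the genes tested. The median log2 fold change was 1.29 for the 8 members and -0.00 for all genes tested. HAI3, AHG1 and HAI2 rose between 5.02-fold and 6.25-fold, ABI2 and HAB1 between 2.19-fold and 2.74-fold, and PP2CA and HAB2 less than these.

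AHG1 is known as a seed phosphatase that the receptors inhibit poorly, unlike its relatives. It stood at 41.2, 27.1, 26.8 and 28.1 CPM in the control libraries and at 156, 151, 170 and 152 in the ABA libraries. Every ABA library lay far above every control library, and control replicate 1 lay above the other control libraries. The log2 fold change was 2.34 ± 0.10 (SE; edgeR adjusted p = 3.15e-14), and it was 2.53 without control replicate 1. PP2CA, which acts beside AHG1 in germinating seeds, stood at 78.3, 75.7, 81.7 and 76.6 CPM in control and 137, 142, 114 and 130 with ABA. Its groups did not overlap, with ABA replicate 3 the lowest of the ABA libraries. PP2CA rose by 0.74 ± 0.077 on the log2 scale (edgeR adjusted p = 6.96e-08).

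The HAI genes are named for being highly ABA-induced. HAI3 stood at 14.2, 14, 11.5 and 8.98 CPM in control and 83.4, 76.5, 68.4 and 78.6 with ABA, a log2 fold change of 2.64 ± 0.13 (edgeR adjusted p = 1.31e-13), the largest of the 8. HAI2, also called AIP1, stood at 12.6, 8.9, 11.6 and 9.62 CPM in control and 51.8, 53.6, 56.3 and 54.7 with ABA. The ABA libraries of HAI2 were close together and all above control, and its log2 fold change was 2.33 ± 0.09 (edgeR adjusted p = 2.05e-15). HAI1, also called SAG113 and known from leaf senescence, was close to the limit of detection in all 16 libraries. It had 1, 2, 0 and 0 counts in control, 0, 0, 0 and 1 with glucose, 12, 6, 4 and 9 with ABA and 6, 8, 6 and 4 with both compounds. The highest level still compatible with no count at all, 3 counts, was 0.171 to 0.325 CPM depending on the library. All 8 libraries with ABA held more HAI1 counts than all 8 without it. Summed over libraries, HAI1 had 31 counts with ABA against 3 in control. Relative to the scaled library totals the ratio was 9.93 (95% exact interval 3.1 to 50.8, counting error only). In the fit with no filter on low counts HAI1 was called higher with ABA, at a log2 fold change of 3.12 that depends on the prior count (edgeR adjusted p = 0.000637).

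HAB1 and HAB2 are a pair of related phosphatases. HAB1 stood at 22.3, 21.9, 20.7 and 17.8 CPM in control and 47, 48.7, 42.3 and 43.9 with ABA, a log2 fold change of 1.13 ± 0.099 (edgeR adjusted p = 4.64e-09). HAB2 stood at 36.7, 42.4, 37.8 and 40.7 CPM in control and 53.5, 45.5, 50.8 and 53.2 with ABA, a log2 fold change of 0.37 ± 0.073 (edgeR adjusted p = 0.000356). Both pairs of groups were apart, though the lowest ABA library of HAB2 was only slightly above its highest control library. ABI2 stood at 2.47, 2.74, 2.22 and 3.49 CPM in control and 7.6, 7.56, 7.9 and 6.43 with ABA. It rose by 1.45 ± 0.14 on the log2 scale (edgeR adjusted p = 2.92e-08). ABI1, the close relative of ABI2, went the other way, from 95.9, 89.4, 95.6 and 96.8 CPM in control to 77.9, 74.3, 82.5 and 73.2 with ABA. Every ABA library lay below every control library, and the log2 fold change was -0.30 ± 0.06 (edgeR adjusted p = 0.000534). All 8 of these calls held under each of the 26 alternatives.

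**Figure D2:**
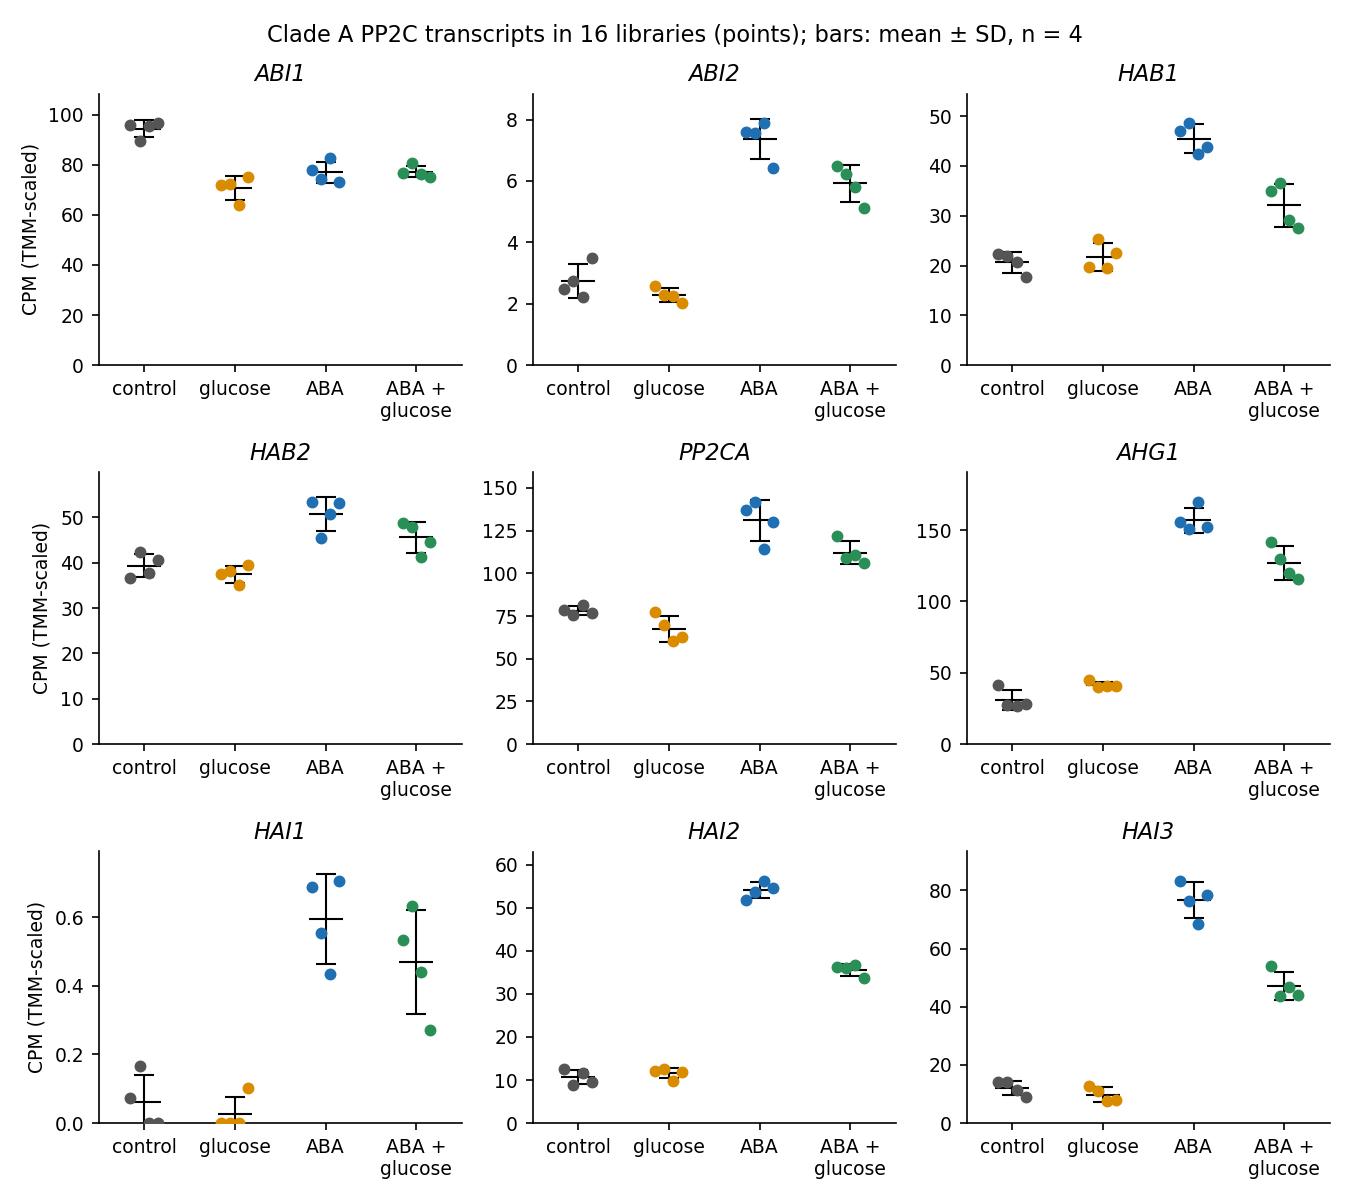
CPM of each of the 9 clade A PP2C transcripts in the 16 libraries (points, coloured by group, scale differing between panels), with bars for the mean ± SD of 4 libraries. AHG1, HAI2 and HAI3 are several-fold higher in the ABA group, ABI1 is highest in control, and HAI1 is at most 0.706 CPM.

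Glucose against control asks what the sugar changed with no ABA added. ABI1 fell and AHG1 rose, and the other 6 tested members did not pass the test. Over all genes tested, 11.3% were called, 3.85% higher and 7.49% lower. Only ABI1 had groups that did not overlap, which 19.4% of the genes tested had. The median log2 fold change was -0.14 for the 8 members and -0.01 for all genes. ABI1 stood at 71.8, 72.2, 63.8 and 74.9 CPM with glucose, every library below every control library, a log2 fold change of -0.42 ± 0.061 (edgeR adjusted p = 8.22e-05). AHG1 stood at 44.9, 40.2, 41 and 41.1 CPM with glucose. These values lie above control replicates 2, 3 and 4 but around control replicate 1, so the groups overlapped. Its log2 fold change was 0.44 ± 0.11 (edgeR adjusted p = 0.011), and it was 0.62 without control replicate 1.

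PP2CA stood at 77.5, 69.5, 60.4 and 62.7 CPM with glucose, a log2 fold change of -0.21 with a 95% interval of -0.37 to -0.05 (edgeR adjusted p = 0.0882). It was called lower without ABA replicate 3 (edgeR adjusted p = 0.0313), although the value, -0.21, was the same, and also without glucose replicate 1 (log2 fold change -0.27, adjusted p = 0.0267, edgeR). HAI3 stood at 12.8, 10.9, 7.51 and 8.1 CPM, a log2 fold change of -0.33 (interval -0.65 to -0.01, adjusted p = 0.183, edgeR). For the others the intervals spanned 0: -0.11 to 0.33 for HAI2, -0.15 to 0.29 for HAB1, -0.22 to 0.09 for HAB2 and -0.59 to 0.14 for ABI2. Their glucose libraries ran from 9.9 to 12.5 CPM, 19.5 to 25.4, 35 to 39.5 and 2.03 to 2.57, and each range overlapped control.

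ABA plus glucose against ABA asks what the sugar changed once ABA was present. HAI3, HAI2 and HAB1 were lower with glucose, and none of the 8 was called higher. Over all genes tested, 4.4% were called, 3.24% lower and 1.16% higher. The libraries of 4 members were apart, all lower, against 5.65% of genes lower and 9.8% in either direction. The median log2 fold change was -0.31 for the members and 0.00 for all genes. HAI3 stood at 54.1, 43.8, 46.7 and 44.2 CPM with both compounds, below every ABA library, and fell by 0.71 ± 0.11 on the log2 scale (edgeR adjusted p = 0.00023). HAI2 stood at 36.3, 35.9, 36.6 and 33.6 CPM, a fall of 0.60 ± 0.078 (edgeR adjusted p = 2.43e-05). HAB1 stood at 35, 36.5, 29.2 and 27.6 CPM, again below every ABA library, and fell by 0.51 ± 0.095 (edgeR adjusted p = 0.00146). All 3 calls held under each of the 26 alternatives.

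AHG1 stood at 142, 130, 120 and 116 CPM with both compounds, and all these libraries lay below the ABA libraries. Its log2 fold change of -0.31 (interval -0.51 to -0.11) did not pass the test over all genes (edgeR adjusted p = 0.0735). It was called in 5 of 26 alternatives, among them that without control replicate 1 (edgeR adjusted p = 0.00328). Over the 26 the adjusted p ran from 0.00328 to 0.245. PP2CA stood at 122, 109, 111 and 106 CPM and overlapped the ABA group, with a log2 fold change of -0.22 (edgeR adjusted p = 0.114). Without ABA replicate 3 that value was -0.28 (edgeR adjusted p = 0.0103). ABI2 stood at 5.13 to 6.5 CPM and HAB2 at 41.3 to 48.7 CPM, and neither passed edgeR's test (log2 differences -0.32 and -0.16, adjusted p 0.185 and 0.285). ABI1 stood at 76.8, 80.5, 76.3 and 75.1 CPM, with a log2 fold change of 0.00 (interval -0.12 to 0.13). Summed HAI1 counts were 24 with both and 31 with ABA alone, a ratio of 0.745 (95% exact interval 0.418 to 1.31).

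ABA plus glucose against glucose asks what ABA changed when sugar was present. The same 7 members that rose with ABA alone were called higher, and none was called lower. Over all genes tested, 5.82% were called higher and 5.95% lower. HAI3 rose by 2.26 ± 0.14, HAI2 by 1.62 ± 0.092, AHG1 by 1.60 ± 0.10, ABI2 by 1.36 ± 0.15, PP2CA by 0.73 ± 0.078, HAB1 by 0.56 ± 0.10 and HAB2 by 0.28 ± 0.073 on the log2 scale. The highest adjusted p among them was 0.0119 (edgeR), that of HAB2, whose call was lost without glucose replicate 3 or ABA plus glucose replicates 1 or 2. ABI1 had a log2 fold change of 0.13 (interval 0.00 to 0.25) and was not called (edgeR adjusted p = 0.222), though its libraries with both compounds all lay above those with glucose. In this comparison 8 of the 8 tested members had groups that did not overlap, all with the higher values under ABA, against 9.54% of all genes tested.

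ABA plus glucose against control gave the same directions as ABA alone, with which it shares the control libraries. Here 7 members were called higher and ABI1 lower, against 11.2% and 14.1% of all genes tested, 25.3% together. The libraries of 7 members were apart, against 28% of genes. The log2 fold changes were 2.04 for AHG1, 1.94 for HAI3, 1.73 for HAI2, 1.13 for ABI2, 0.62 for HAB1, 0.52 for PP2CA, 0.21 for HAB2 and -0.29 for ABI1. HAB2 overlapped control (edgeR adjusted p = 0.0365). Its call was lost in 8 of 26 alternatives, among them those without control replicates 1 or 3 and without ABA plus glucose replicates 1, 2 or 4.

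**Figure D3:**
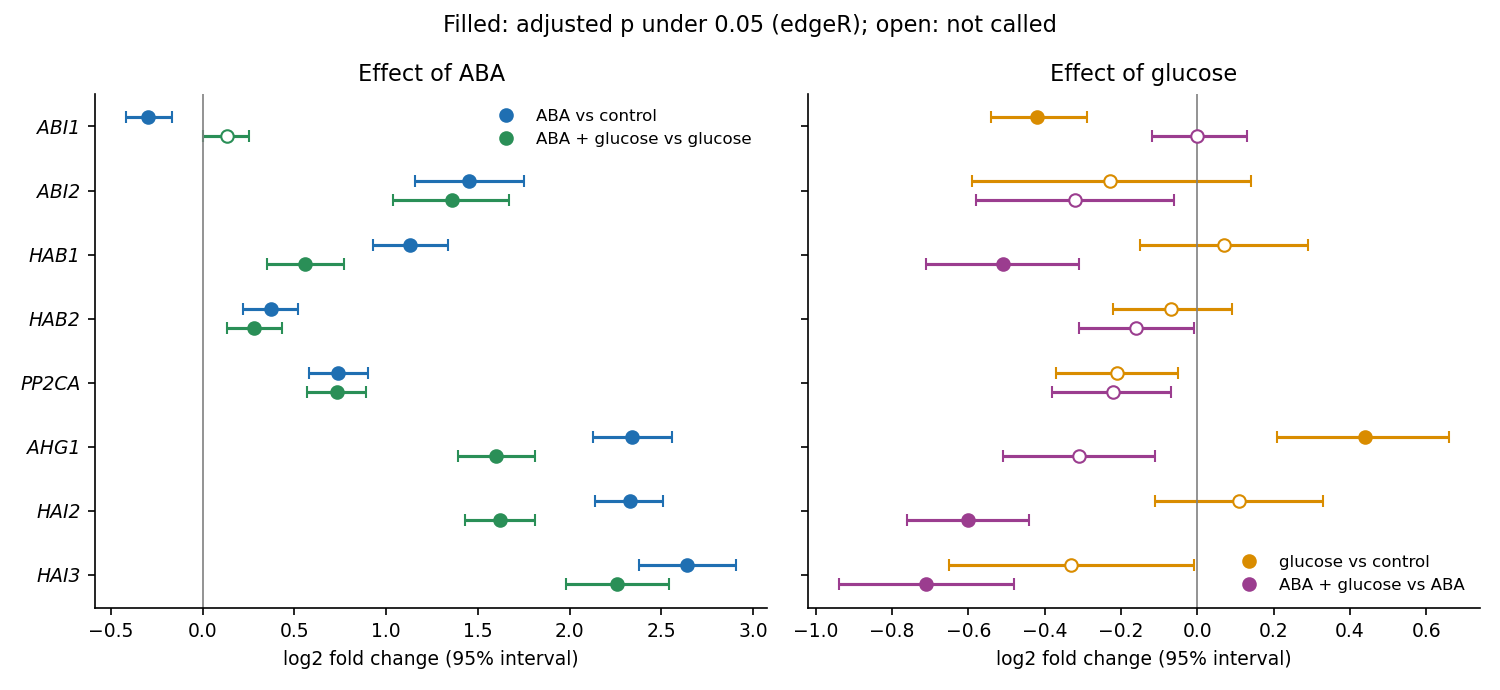
Estimated log2 fold changes (x axis) with 95% intervals for 8 members, for ABA without and with glucose (left) and for glucose without and with ABA (right); filled points were called at an adjusted p under 0.05. For AHG1, HAI2 and HAB1 the ABA effect is smaller with glucose than without, and PP2CA has 0.74 and 0.73.

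The interaction is the glucose effect in the presence of ABA minus that in its absence. It was called negative for AHG1, HAI2 and HAB1 and called positive for ABI1, 4 of the 8 members. Over all genes tested, 2.07% were called negative and 3.23% positive. AHG1 had -0.74 ± 0.14 on the log2 scale (edgeR adjusted p = 0.00335), since glucose came with a rise without ABA and with lower values in its presence. HAI2 had -0.71 ± 0.13 (edgeR adjusted p = 0.00208) and HAB1 had -0.58 ± 0.14 (edgeR adjusted p = 0.0188). The call of HAB1 was lost without glucose replicate 2, the library with its highest value in that group, where the interaction was -0.49 (edgeR adjusted p = 0.0566). ABI1 had 0.42 ± 0.086 (edgeR adjusted p = 0.00479): it fell with glucose alone and with ABA alone, and stood at 77.2 ± 2.3 CPM with both, against 70.7 ± 4.8 and 77 ± 4.2 with either.

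The other 4 members had no called interaction, with intervals of -0.78 to 0.01 for HAI3, -0.24 to 0.21 for PP2CA, -0.54 to 0.35 for ABI2 and -0.30 to 0.12 for HAB2. HAI3, the member with the largest fall from ABA to ABA plus glucose, thus had no called interaction. A direct test between members was not run.

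The makeup of the family shifted with ABA. Summed over the 9 members, the deposited value per length was 185 to 203 in control, 159 to 188 with glucose, 433 to 448 with ABA and 324 to 376 with both. The sum with ABA lay above that with both compounds in every library, and both lay above control and glucose. ABI1 and PP2CA together made up 59.8% ± 2.6 of the sum in control, 52.4% ± 0.63 with glucose, 32.5% ± 1.3 with ABA and 37% ± 0.96 with both. AHG1, HAI2 and HAI3 together went from 23.5% ± 3.1 in control and 30.1% ± 0.94 with glucose to 55.4% ± 1.2 with ABA and 50.8% ± 0.95 with both. AHG1 alone held 13.8% ± 2.4 in control and 30.9% ± 1.8 with ABA. AHG1, HAI2 and HAI3 are the tested members that rose most with ABA, so the rise of their joint share follows from that choice. ABI1 and PP2CA are the most abundant in control. The share of PP2CA fell from 30.1% in control to 21.9% with ABA although its own level rose. These sums are descriptions and were not tested.

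**Figure D4:**
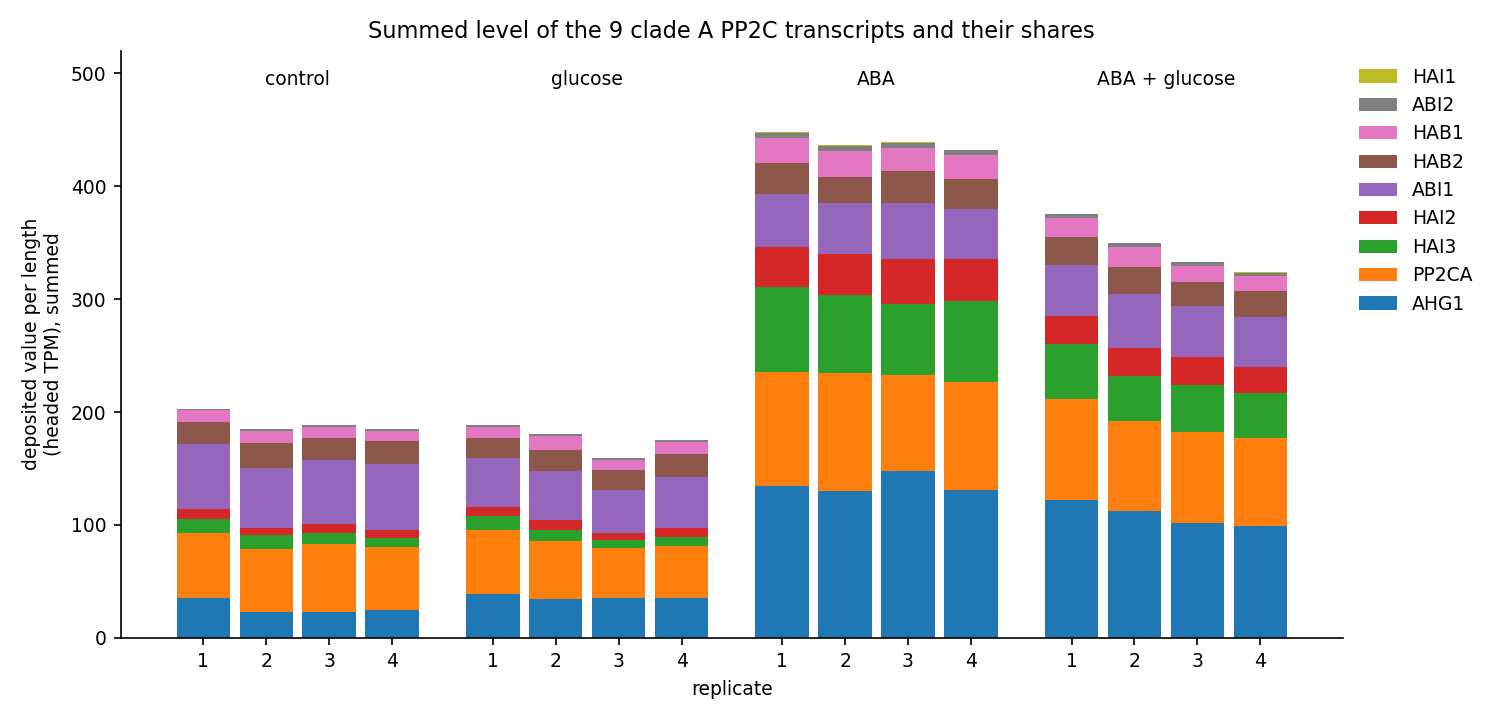
Deposited value per transcript length (headed TPM) of the 9 clade A PP2C transcripts, stacked for each of the 16 libraries, which are grouped by treatment along the x axis. The ABA bars reach 433 to 448 and the control bars 185 to 203, and the AHG1 and HAI3 parts grow most.

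Other parts of the ABA pathway were counted from lists chosen by function. Beside these counts, 16.1% of all genes tested were called higher with ABA and 18% lower. Of 14 PYR/PYL receptors 12 were tested, and with ABA 2 rose and 7 fell, with a median log2 fold change of -0.47. The largest of these falls were those of PYL6 (-1.67), PYL1 (-1.41) and PYL4 (-1.17), and PYL13 rose by 1.99 (adjusted p at most 9.66e-07 for these 4, edgeR). Of 10 SnRK2 kinases 8 were tested, with 1 called higher, 2 lower and a median of 0.09. Of 9 group A bZIP factors, which the kinases activate, 8 were tested and 7 rose, with a median of 0.46. With ABA, ABI5 rose by 2.21, EEL by 1.31 and ABF4 by 1.14 on the log2 scale (adjusted p at most 2.06e-08, edgeR). In ABA plus glucose against ABA, ABI5 fell by 0.59 and ABF4 by 0.78 (adjusted p at most 5.09e-05, edgeR), and EEL had -0.25 (adjusted p = 0.187, edgeR).

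Among regulators of the phosphatases, 4 of 5 were tested. EAR1, which raises PP2C activity, had a log2 fold change of -0.82 with ABA (edgeR adjusted p = 8.17e-08), and PUB13, a ubiquitin ligase of ABI1, had 0.27 (edgeR adjusted p = 0.00395). These values are given because only these 2 of the list were called, beside 34.1% of all genes tested. DOG1, the dormancy protein that binds AHG1, was removed by that filter. On the per-length scale the receptors summed to 1087 ± 70 in control and 928 ± 29 with glucose. They summed to 702 ± 88 with ABA (653 to 833 by library) and 756 ± 37 with both. The SnRK2 kinases summed to 403 ± 10 in control and 419 ± 13 with ABA. The phosphatases summed to 190 ± 8.4 in control and 175 ± 12 with glucose. The sum of the 9 phosphatases was thus 0.175 ± 0.0062 of the receptor sum in control and 0.189 ± 0.016 with glucose. With ABA the ratio was 0.632 ± 0.07 (0.527 to 0.674 by library), and with both 0.459 ± 0.045. These sums and ratios were not recomputed without ABA replicate 3. They are ratios of transcripts, not of proteins.

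The PP2C genes outside the clade are a background for the family. Of 68 genes annotated as PP2Cs, 55 were tested, and with ABA 14 rose and 15 fell, with a median log2 fold change of -0.05. Among all genes tested, 16.1% were called higher and 18% lower. The largest rises were those of AT2G34740 (2.64), AT5G26010 (1.32) and AT5G66080 (1.29), and the largest falls those of AT1G07160 (-1.19), AT5G02760 (-0.92) and AT1G47380 (-0.63). All of these but AT1G47380 had group means under 5 CPM. AT2G34740 averaged 0.397 CPM in control and 0.264 with glucose, against 2.43 with ABA. The next rise was that of AT3G15260, at 1.27 (edgeR adjusted p = 1.24e-12). When glucose was added to ABA 3 of the 55 were lower and 0 higher, against 3 and 0 of the 8 clade A members and 3.24% and 1.16% of all genes tested (adjusted p under 0.05, edgeR).

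**Figure D5:**
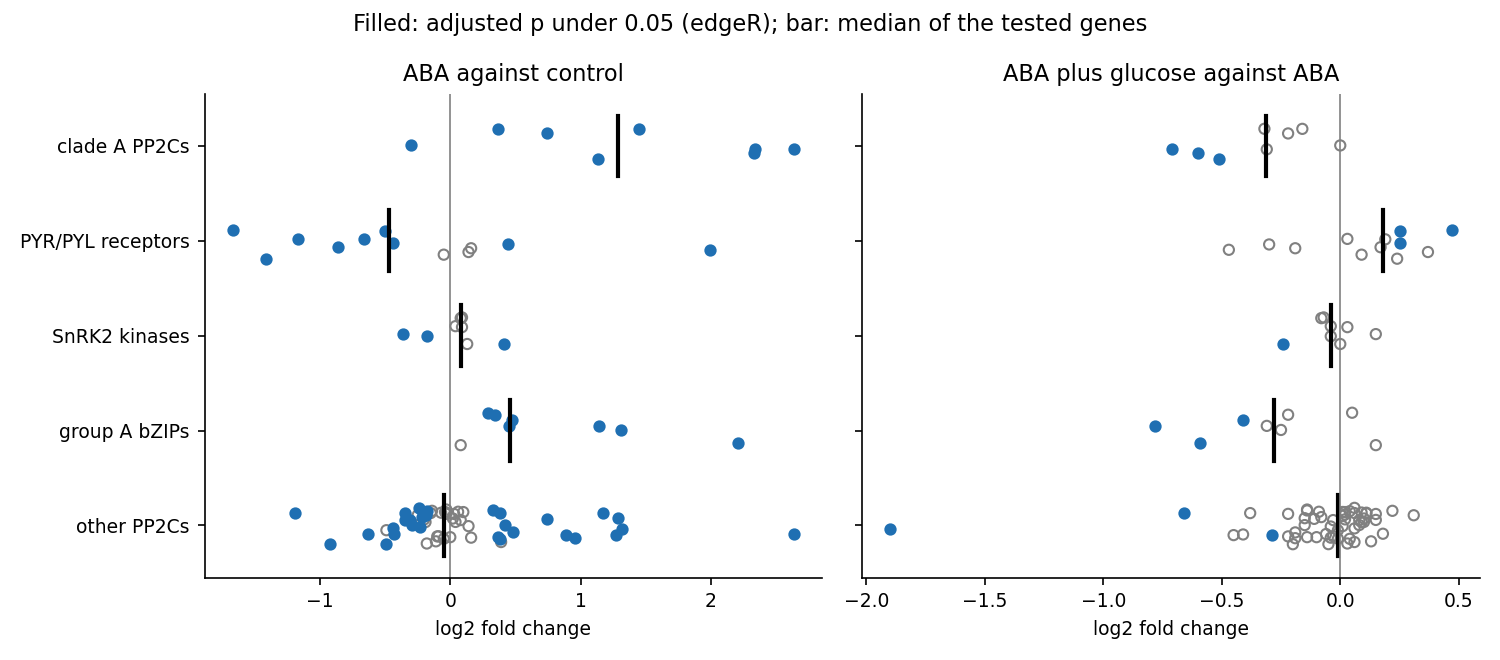
Fitted log2 fold change of each tested gene (points) in 5 groups of ABA pathway and PP2C genes, for ABA against control (left) and ABA plus glucose against ABA (right); filled points were called at an adjusted p under 0.05 and bars are medians. With ABA the clade A median is 1.29, the receptor median -0.47 and that of the other PP2Cs -0.05.

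For each tested member, the 2 genes with the most similar pattern were found by Pearson r of log2 CPM over the 16 libraries. The libraries fall into 4 treatment groups, so these values mostly describe the differences between the groups and carry no test. AHG1 was most like AT1G16850 (r = 0.994) and the cysteine protease gene RD19D (0.992). HAI2 was most like the late embryogenesis abundant genes LEA4-5 (AT5G06760, 0.995) and AT3G17520 (0.995), and HAI3 most like the alternative oxidase gene AOX2 (0.996) and AT5G04000 (0.996). PP2CA was most like the chlorophyll breakdown gene SGR1 (0.989) and AT1G18460 (0.986). ABI2 was most like AT1G01520 (0.981) and the bZIP gene GBF3 (0.978), and HAB1 most like the acetate-CoA ligase gene AAE7 (0.980) and AT1G01240 (0.977). HAB2 was most like WIP2 (0.932) and GALS1 (0.931). ABI1, the member that fell, was most like the bZIP gene BZIP2 (AT2G18160, 0.945) and PPD (AT4G16690, 0.925).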

How the data were processed

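Estimated counts per gene, deposited by the authors for 16 libraries, were used. Per the submitters' processing notes the tools were Trimmomatic 0.38, kallisto 0.44.0 and sleuth, with no role given, and the genome build and the use of strand are not given in the sources used here. The file calls the counts raw, yet 6.44% to 8.57% of a library's values have decimals, so the estimated counts were rounded. The deposited signal per transcript length, headed TPM per the file headers, sums to 945626 to 1037286 per library, so a further scaling of unknown kind was applied. A further 16 columns belong to samples not analysed here.

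Counts were fitted with edgeR 4.0.16 in R 4.3.3 (TMM, filterByExpr with minimum count 10, 4 group means, all 16 libraries, quasi-likelihood F-test, two-sided). That left 17083 of 27655 genes. Adjustment for multiple tests was by the Benjamini-Hochberg method, over the genes tested in each of 6 contrasts, and called means an adjusted p under 0.05. Standard errors were taken as the size of the log2 fold change over the square root of F. CPM values use TMM-scaled totals. No label gives a batch. The labels call the replicates biological without saying what was separate, and p-values measure the spread between these libraries. All 9 members are named in each contrast. From the receptor, kinase and bZIP lists, genes called with ABA and changed by 1 or more on the log2 scale are named. EAR1 and PUB13 fall short of that change and are named as the only regulators called. DOG1 is named as a regulator removed by the filter. Of other PP2Cs, 3 rises and 3 falls are named, and AT3G15260 as the next rise. Members and lists were chosen with earlier results of these data known. Alternatives were other scalings and filters, DESeq2 1.42.0, limma 3.58.1 on the log2 deposited signal plus 1 or 0.1, fits of the groups compared alone, a replicate block and leaving out each library. The fit was tested on simulated data for ABA against control and the interaction only, with fewer genes changed than were called here. Upstream sequences are from RefSeq TAIR10.1.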

Additional observations from a re-analysis of the deposited data

Results flagged for a closer look

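In 32 sets of 4 libraries, a single library far from the other 3 was found in 2, and chance alone gives such a flag in about 1 of 20 sets. AHG1 stood at 41.2 CPM in control replicate 1, against 26.8 to 28.1 in the other control libraries. Over all genes tested, that library also had the lowest mean correlation within the control group, 0.9882 against 0.9900 to 0.9910. ABI1 stood at 89.4 CPM in control replicate 2, against 95.6 to 96.8 in the others.

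By the interaction test, glucose had a different effect in the presence of ABA for ABI1 (0.42 on the log2 scale), HAB1 (-0.58), HAI2 (-0.71) and AHG1 (-0.74). Without control replicate 1 the value for AHG1 was -0.93.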

How the results depend on the processing

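Of 1240 fold changes of members under the alternatives, 1220 kept their side of the threshold, 12 lost a call and 8 gained one. No called value changed sign, but some uncalled values near 0 did, among them HAB1 with glucose alone and the PP2CA interaction. Calls that moved belong to HAB2 with both compounds, PP2CA and AHG1 in the glucose contrasts and HAB1 in the interaction. The number of members called lower with glucose alone was 1, and 1 to 2 when single libraries were left out (2 without glucose replicate 1 or ABA replicate 3). Counts over all genes moved more. Leaving out single libraries gave 343 to 1180 genes higher (658 with all) and 816 to 1804 lower (1279) with glucose, 107 to 243 higher (198) in ABA plus glucose against ABA, and 335 to 846 positive (551) and 226 to 587 negative (353) interactions. The highest of each of these ranges is the value without ABA replicate 3, and the lowest without glucose replicate 3 for the glucose counts and ABA plus glucose replicate 3 for the others. When a fit held no other groups, these were 1001 higher with glucose, 99 higher in ABA plus glucose against ABA, and 1554 lower (1017) in ABA plus glucose against glucose. The causes were not tested. Replicate numbers gave no clear sign of pairing. Deviations from the group means correlated at -0.155 to 0.113 (median 0.0256) between same-numbered libraries of different groups. Between differently numbered ones the correlations were -0.184 to 0.235 (median -0.00243). With the replicate block AHG1 was called lower in ABA plus glucose against ABA at -0.31, and no other member's call changed. On CPM per kilobase of RefSeq transcript 7 of 9 members kept their place in the control order and 9 of 9 in the other groups. Depth limits HAI1, which had 31 counts over the ABA libraries and 3 over control.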
